A study of Trichoderma reesei with 15 samples.

Results

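The comparison set 4 libraries of a Trichoderma reesei strain lacking pp2A against 4 libraries of its parent, 8 of the 15 libraries of the series. T. reesei is a filamentous fungus that secretes large amounts of cellulases when it grows on plant cell wall material. The pp2A deletion strain, QM6aΔmus53Δpp2A (Δpp2A below), was profiled in an experiment tagged DD1 (4 libraries). The parent, QM6aΔmus53, was profiled in DD1 (2 libraries) and in an experiment tagged DD3 (2 libraries, typed by the submitters as the control of another deletion), and its 4 libraries were taken as 1 group. Both strains lack mus53, which works in non-homologous end joining and is removed to make targeted gene replacement more frequent, so every difference below is one on that background. All mycelia had grown for 96 h at 28 °C with cellulose as carbon source, in darkness. The members were chosen by their titles alone. Δpp2A replicate 1 has the type label WT against its title, source name and cell line, and it was kept with Δpp2A. The labels do not say what the tags stand for, how many transformants the deletion strain comprised or whether replicates were separate cultures, so p-values measure the spread between these libraries, which may be technical.

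PP2A enzymes are serine/threonine protein phosphatases found throughout the eukaryotes. A catalytic subunit removes phosphate groups, a scaffold subunit holds the complex together, and exchangeable regulatory subunits choose the substrates. In fungi such phosphatases are known to act on growth, cell division and nutrient signalling. In T. reesei, cellulase genes are switched on by cellulose and kept low in the presence of easily used sugars. The gene table gives systematic identifiers, each made of 1 of 7 letters, a running number and the suffix W or C. It pairs them with no gene names, and 0 of them matched the RefSeq gene table, so neither cellulase genes nor other pathways could be picked out and 4 identifiers are printed in all. Values for other genes are given by rank or class. The 3 rows named in another form, mat1-1-1, mat1-1-2 and mat1-1-3, are genes of a mating type that QM6a does not carry, and they had 0 counts in each library.

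Library totals ranged from 7862390 to 11134647 counts in Δpp2A and from 9310996 to 10499078 in the parents. Across the 8402 genes tested, log2 CPM correlated at 0.967 to 0.988 between Δpp2A libraries, at 0.892 to 0.985 between parent libraries and at 0.813 to 0.916 between a Δpp2A and a parent library. The parents did not split by experiment. The libraries numbered 2 correlated at 0.985 across experiments and those numbered 1 at 0.971, against 0.892 between the DD1 parents and 0.959 between the DD3 parents. Among the Δpp2A libraries, replicate 3 stood nearest to the parents. Its level was the closest of the 4 to the parent mean in 37.7% of the genes tested and in 70.4% of the genes called lower by at least 2-fold. It had 0 counts of TrG1101W, described next, but that gene was chosen for its near absence from Δpp2A. What brought replicate 3 nearer to the parents was not tested.

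TrG1101W (coding length 846 bases) was the clearest candidate for the deleted gene. It had 0, 0, 0 and 4 counts in Δpp2A replicates 1 to 4, against 247 and 319 counts in the DD1 parents and 274 and 342 in the DD3 parents. In CPM scaled by TMM, which sets libraries to a common size, that was 0.108 ± 0.215 CPM in Δpp2A (SD, n = 4) and 33.0 ± 1.04 CPM in the parents (SD, n = 4). All 4 Δpp2A libraries lay below all 4 parents, which differed from each other by no more than 1.06-fold. The log2 fold change was -8.25 (SE 0.61, and an adjusted p = 6.60e-05 by edgeR's quasi-likelihood test). The fitted size rests on the 4 counts of replicate 4, without which Δpp2A was at 0 and the fit gave -11.3. The pooled parent level was 285-fold the pooled Δpp2A level, with a 95% counting interval of 111 to 1049 that covers counting error only. The 7 libraries of the other deletions held 26.4 to 38.3 CPM of library total. The labels name no identifier for pp2A. The search rule (at least 5 CPM in the parents, under 1% of it left in Δpp2A, at least 5 CPM in each library of the other strains) found 2 genes. Without its condition on the other strains, 12 genes were found. The other of the 2 was at 2.91, 8.80, 81.0 and 31.8 CPM in Δpp2A, against 5570 and 246 CPM in the DD1 parents and 4010 and 3960 CPM in the DD3 parents. TrG1101W was singled out because its parent libraries were the steadier, a choice made after the values were seen. The rule and this choice used the values above, so the gap, the small parent range and the adjusted p are not independent support.

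Without pp2A, 37.7% of the measured transcriptome was called different, about evenly in both directions. Of the 8402 genes tested, 1534 were higher in Δpp2A (18.3%) and 1637 lower (19.5%), 3171 in all, at an adjusted p under 0.05 by edgeR. Genes called and at least 2-fold apart numbered 598 higher (7.12%) and 609 lower (7.25%). Most called changes were small, with a median log2 fold change of 0.77 among the higher and -0.73 among the lower genes. The values are shares of a library's counts, so a fall of a transcript and a larger total of the others cannot be told apart.

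The even split rests on the scaling. TMM takes the typical gene as unchanged and left a median log2 fold change of -0.03 over all genes tested. Scaling by library size only moved that median to 0.26 and gave 3002 higher and 760 lower genes, and upper quartile scaling moved it to 0.07 and gave 1855 higher and 1183 lower genes. With the DD1 parents alone, the libraries that share the tag of Δpp2A, 723 genes were higher (8.41%) and 813 lower (9.46%) of 8592 tested. With the DD3 parents alone, 1594 were higher (18.4%) and 1611 lower (18.6%) of 8643 tested. Both sets of calls use the same Δpp2A libraries and are not independent. Without Δpp2A replicate 4, 1273 genes were higher and 1036 lower.

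Large gains and large losses were similar in number. At least 8-fold higher were 134 genes and at least 8-fold lower 121, and at least 32-fold higher 30 genes and at least 32-fold lower 29. The 30 genes that rose at least 32-fold had a median level of 61.1, 72.3, 63.5 and 73.6 CPM in the Δpp2A libraries, against 0.782 and 0.789 CPM in the DD1 parents and 0.880 and 0.551 CPM in the DD3 parents. All 30 had no overlap between the groups, as did 20.4% of all genes tested in this direction. In all 30, each Δpp2A library also lay above the 7 libraries of the other deletions, while 7 of the 29 genes at least 32-fold lower lay below all of them. The matching share over all genes tested was not counted. Levels in the other deletions follow those of the parents (rho 0.986), and distance from the parents chose these genes, so the counts are not independent support. The 29 genes that fell at least 32-fold had a median of 0.888, 0.685, 3.99 and 2.69 CPM in Δpp2A, against 446 and 10.4 CPM in the DD1 parents and 296 and 43.7 CPM in the DD3 parents. The parents were over 4-fold apart in 26 of these 29 genes. Taken without an added CPM they were so in 15 of the 30 that rose, but these parents held few counts, and in 10 of the 15 the lowest had 0.

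TrA1907C (coding length 2280 bases) showed the largest log2 fold change of the firm gains, meaning genes with at least 10 CPM, no overlap and a call in each fit that left out 1 of the 8 libraries. It was at 419, 454, 315 and 508 CPM in Δpp2A, against 0.782 and 2.00 CPM in the DD1 parents and 1.06 and 0.400 CPM in the DD3 parents. The groups were far apart, and the parents stood near the detection limit. The log2 fold change was 8.62 (SE 0.43; edgeR adjusted p = 1.03e-05), and the 7 libraries of the other deletions reached at most 2.50 CPM of library total. The gene with the next running number ranked 3 by fold, at 147, 163, 114 and 178 CPM in Δpp2A, against 1.30 and 0.421 CPM in the DD1 parents and 0.235 and 0.30 CPM in the DD3 parents. The genes ranked 2 and 6 by fold also had consecutive numbers, with 354 ± 69.6 and 107 ± 21.3 CPM in Δpp2A against 1.05 ± 0.295 and 0.602 ± 0.565 CPM in the parents (SD, n = 4 per group).

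TrC1011W (coding length 2772 bases) gained most in absolute level among the firm gains. It was at 6010, 5820, 4800 and 5530 CPM in Δpp2A, against 802 and 2700 CPM in the DD1 parents and 1750 and 2380 CPM in the DD3 parents. The lowest Δpp2A library was well above the highest parent, although the parents themselves spread widely. The mean was 5541 ± 530 CPM in Δpp2A and 1908 ± 838 CPM in the parents (SD, n = 4 per group; log2 fold change 1.54 with SE 0.34, edgeR adjusted p = 0.00988). With the DD1 parents alone the log2 fold change was 1.66 and the call was lost (edgeR adjusted p = 0.0661). In the other deletions it ranged from 631 to 3740 CPM of library total. By mean CPM, which is not per length, it ranked 3 among all genes in Δpp2A and 57 in the parents.

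Other gains differed in steadiness. The gene ranked 2 by gain in level was at 2590, 2360, 2400 and 2550 CPM in Δpp2A, against 161 and 148 CPM in the DD1 parents and 151 and 128 CPM in the DD3 parents, with spreads far smaller than the difference (log2 fold change 4.07, SE 0.09). A gene with a coding length of 29481 bases was at 3210 ± 290 CPM in Δpp2A and 1110 ± 399 CPM in the parents (SD, n = 4 per group; log2 fold change 1.53). A gene of 9003 bases was at 924 ± 103 CPM in Δpp2A and 38.0 ± 3.92 CPM in the parents, a 24.3-fold rise.

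TrC1166C (coding length 1629 bases) lost most in absolute level among the firm losses. It was at 1056, 196, 3448 and 916 CPM in Δpp2A, against 15350 and 15500 CPM in the DD1 parents and 16000 and 12990 CPM in the DD3 parents. The parents were close together and all Δpp2A libraries far below them, but the Δpp2A libraries ranged widely, with replicate 3 the highest. The mean was 1404 ± 1410 CPM in Δpp2A and 14960 ± 1340 CPM in the parents (SD, n = 4 per group; log2 fold change -3.41 with SE 0.76, edgeR adjusted p = 0.0106). Without Δpp2A replicate 3 the log2 fold change was -4.37 (edgeR adjusted p = 0.00245). With 2 parents at a time the size stayed alike and the call was lost (log2 fold change -3.46, adjusted p = 0.0577 with the DD1 parents, and -3.35, adjusted p = 0.0746 with the DD3 parents, both by edgeR). It ranked 2 in the parents and 46 in Δpp2A by mean CPM, and it held 12600 to 17700 CPM of library total in the other deletions.

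The losses ranked next differed in spread within Δpp2A. The gene ranked 2 by loss was at 176, 172, 1000 and 249 CPM in Δpp2A, against 5990 and 3920 CPM in the DD1 parents and 5750 and 4350 CPM in the DD3 parents. The gene ranked 3 was at 142, 149, 517 and 191 CPM in Δpp2A, against 4800 and 3660 CPM in the DD1 parents and 4840 and 3940 CPM in the DD3 parents. In both, replicate 3 stood above the other Δpp2A libraries and still far below the parents. The gene ranked 4 was at 625, 592, 624 and 595 CPM in Δpp2A, against 4800 and 3390 CPM in the DD1 parents and 4780 and 3550 CPM in the DD3 parents. Its 4 Δpp2A libraries were nearly equal.

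**Figure D1:**
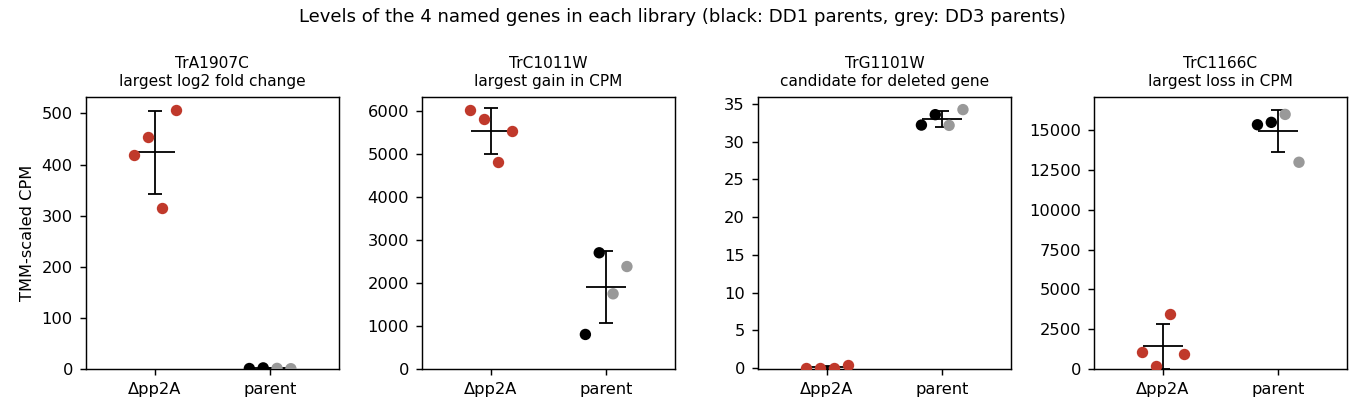
TMM-scaled CPM (vertical axes, linear, 1 scale per panel) of the 4 named genes in each Δpp2A library (red) and parent library (black, DD1; grey, DD3), with mean and SD as bars (n = 4 per group). The groups do not overlap in any panel, which the rules that chose the genes required, for TrG1101W at its parent level. TrC1166C spreads from 196 to 3448 CPM within Δpp2A.

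The most abundant transcripts were mostly lower in Δpp2A. Abundance was ranked by CPM per kb of coding length in the 7 libraries of the other deletions, which take no part in the comparison. Their levels followed those of Δpp2A at a rho of 0.903 and those of the parents at 0.986 (n = 8402 genes), so the ranking is close to one by parent level, which favours losses at the top. Of the 100 highest genes 61 fell, 1 rose and 38 were not called, against 19.5% lower and 18.3% higher among all genes tested. Their median log2 fold change was -0.47 against -0.03 over all genes, 19 of the 61 fell at least 2-fold, and in 65 of the 100 all Δpp2A libraries lay below all parents, where 19.2% of all genes tested did. With library size only, 28 of the 100 were lower and 6 higher, and the median was -0.17. With the DD1 parents alone 35 were lower. Ranked by the mean of both strains on the log2 scale, 63 of the 100 were lower and 3 higher. Ranked by Δpp2A levels, which favours gains, 55 were lower and 10 higher.

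Counts were also spread over more genes. The 100 genes held 10.95%, 11.06%, 12.64% and 11.17% of the counts in Δpp2A, against 19.25% and 19.34% in the DD1 parents and 20.32% and 18.99% in the DD3 parents. The groups did not overlap (11.5 ± 0.795% in Δpp2A, 19.5 ± 0.583% in the parents, SD, n = 4; exact two-sided permutation p = 0.0286, the smallest that 4 against 4 allows; adjusted over 5 library measures, 0.0358). Each library's own 100 highest genes took 20.4 ± 0.109% of counts in Δpp2A and 26.2 ± 0.912% in the parents (SD, n = 4; same exact p). Genes at 1 CPM or more numbered 8387, 8401, 8518 and 8392 in Δpp2A, against 8299 and 8212 in the DD1 parents and 8342 and 8195 in the DD3 parents (same exact p). Genes with any count, a number that depth also sets, were 9628 ± 70.1 in Δpp2A and 9640 ± 67.3 in the parents (SD, n = 4; exact permutation p = 0.886).

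Individual transcripts among the highest of the parents moved to different extents. The gene with the highest parent mean, of 261 bases, was at 5281, 5854, 5174 and 6264 CPM in Δpp2A, against 5598 and 24270 CPM in the DD1 parents and 18380 and 27620 CPM in the DD3 parents. It was called lower (log2 fold change -1.75, adjusted p = 0.0153 by edgeR), but DD1 parent 1 stood within the Δpp2A range. The gene ranked 3 was at 208, 120, 4628 and 306 CPM in Δpp2A, against 8166 and 14770 CPM in the DD1 parents and 11030 and 8510 CPM in the DD3 parents. It was not called (log2 fold change -3.01, adjusted p = 0.0802 by edgeR), with Δpp2A replicate 3 far above the other Δpp2A libraries. The gene ranked 4 differed little, at 8060 ± 437 CPM in Δpp2A and 9940 ± 828 CPM in the parents (SD, n = 4; log2 fold change -0.30, adjusted p = 0.0216 by edgeR).

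The direction of change varied with the level, most firmly at the upper end. Genes were put in 10 classes of equal size by CPM per kb in the other deletions. Calls ran from 31.5% higher and 7.02% lower in the lowest class to 6.42% higher and 52.6% lower in the highest. The median log2 fold change ran from 0.46 to -0.44. Genes of the lowest class could pass the filter on low counts through the Δpp2A libraries alone, which favours gains there. Keeping only genes with at least 1 CPM in 4 or more of the 7 other libraries left 654 in that class, of which 26.9% were higher and 8.26% lower, with a median of 0.36. Across all genes, level and fold change had a Spearman's rho of -0.336 (n = 8402 genes, which are not independent). The lower end depended on the ranking. Ranked by the mean of both strains, the lowest class had 23.3% higher and 11.4% lower genes, and ranked by Δpp2A levels it had 11.7% higher and 22.4% lower genes, the reverse order. The highest class had 45.5% and 37.5% lower genes in these rankings, against 9.16% and 17.2% higher, and rho was -0.226 and -0.037. With library size only, in the ranking by the other deletions, the median ran from 0.75 to -0.14, and only the highest class had more lower than higher genes (235 against 134).

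Coding length showed a weaker gradient. In 10 classes by length, 11.3% of the shortest genes (median 345 bases) were higher and 25% lower, and among the longest (median 3550 bases) 26.2% were higher and 13.7% lower. The median log2 fold changes of these 2 classes, -0.15 and 0.07, were 0.15 and 0.37 with library size only, so that the shortest class changed sign. Length and fold change correlated at a rho of 0.102 over all genes, and at 0.0337, 0.137 and 0.159 in 3 classes of low, middle and high level. The standard error of a fold change was smaller for long genes (median 0.101 in the longest class, 0.207 in the shortest), and its part in the calls was not tested.

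**Figure D2:**
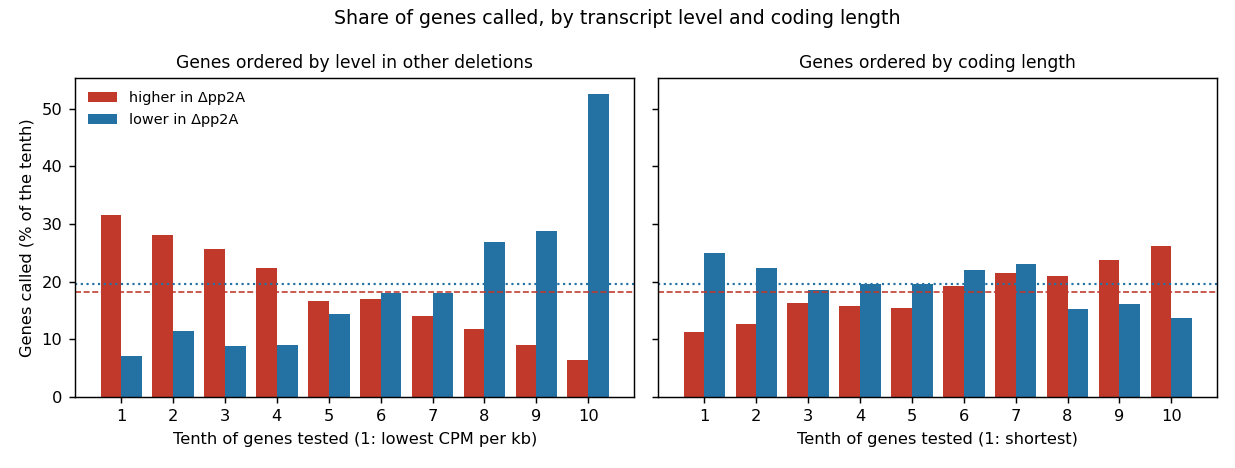
Percent of genes called higher (red) and lower (blue) in Δpp2A against the parents in each of 10 equal classes of the genes tested, ordered by CPM per kb in the other deletions (left) or by coding length (right), with the shares over all genes as dashed red (18.3%) and dotted blue (19.5%) lines. Lower calls reach 52.6% in the class of highest level.

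Few genes went from silence to activity. A gene counted as switched on when it was under 1 CPM in each parent and at least 5 CPM in each Δpp2A library, and 10 genes of 10879 listed met this. The rule used these levels and fixed the separation of the groups, so the count is a description, and the genes passed the filter on low counts through Δpp2A. The most abundant of them in Δpp2A, of 600 bases, had 760, 617, 688 and 675 counts in Δpp2A, against 2 and 6 counts in the DD1 parents and 4 and 6 in the DD3 parents. The one ranked 3 had 574, 405, 504 and 418 counts in Δpp2A, against 3 and 1 counts in the DD1 parents and 0 and 4 in the DD3 parents. In Δpp2A the 10 genes averaged between 9.36 and 65.7 CPM.

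The libraries of the other deletions, which the rule did not use, were silent for part of these genes. Of the 10 genes, 5 were under 1 CPM of library total in all 7 of those libraries, 3 in 5 or 6 of them, and 2 in 3 of them. One of the last 2 reached 9.99 CPM there, while its TMM-scaled level in Δpp2A was 9.36 ± 1.32 CPM (SD, n = 4), so its activity was not limited to Δpp2A. Silent to active depended on where silence was set: 37 genes qualified with under 2 CPM in the parents and 2 with under 0.5 CPM, and 18 without DD1 parent 1.

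The reverse, at least 5 CPM in each parent and under 1 CPM in each Δpp2A library, was met by TrG1101W alone. In 7 further genes the parents averaged at least 10 CPM with each Δpp2A library under 1 CPM. In these a parent library was itself low. DD1 parent 2 was the lowest in 6 of the 7, with 0 to 2.95 CPM, and DD1 parent 1 in the other one, with 2.22 CPM. Of the 7, 4 did not pass the filter on low counts and were not tested.

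**Figure D3:**
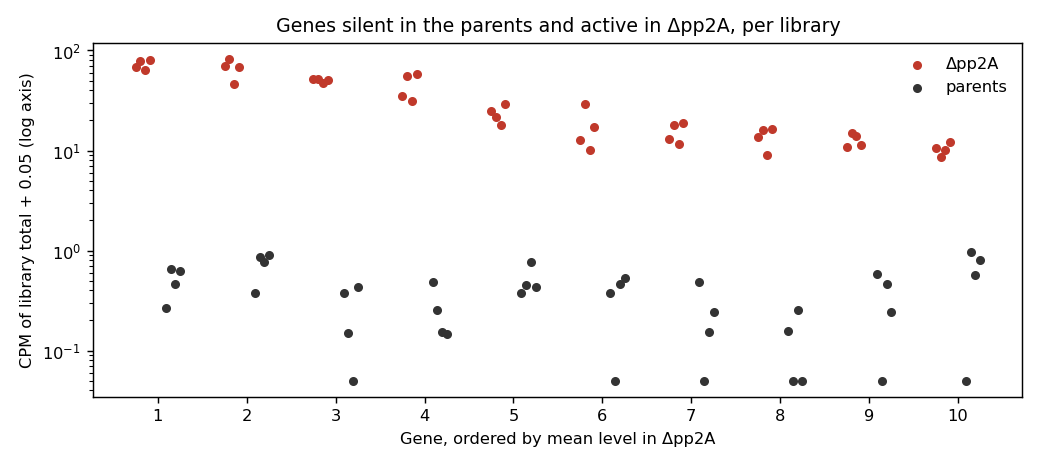
CPM of library total plus 0.05 (vertical log axis) for the 10 genes silent in the parents and active in Δpp2A, ordered by mean level in Δpp2A, with each of the 4 Δpp2A libraries in red and each of the 4 parent libraries in black. Points at 0.05 are libraries with 0 counts. The gap between the groups is set by the rule that chose the genes.

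Set against the spread of the parents, a larger share of gains than of losses stood clear. The 4 Δpp2A libraries lay above all 4 parents in 1469 of the 1534 genes called higher (95.8%) and below them in 1437 of the 1637 called lower (87.8%). Among all genes tested, 20.4% had no overlap in the upward and 19.2% in the downward direction. With 0.5 CPM added before log2, which narrows the range of genes with low parents, the mean difference exceeded the whole range of the parents in 1207 gains (78.7%) and 1134 losses (69.3%). A call in every fit that left out 1 of the 8 libraries was kept by 1040 higher (67.8%) and 985 lower genes (60.2%). All these conditions together were met by 982 higher (64.0%) and 873 lower genes (53.3%), and by 496 and 364 when at least 2-fold apart. The calls were made from the same 8 libraries, so these conditions are not independent of them.

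Parent spread was wide in many large losses. Gains of at least 2-fold mostly began at low parent levels, where ranges follow counting error. Of these 598 genes, 222 had a parent mean of at least 10 CPM. Ranges without an added CPM were therefore set side by side only for genes at or above that mean. Among these, called and at least 2-fold apart, the parents were over 4-fold apart in 11 of 222 higher genes (4.95%) and in 126 of 515 lower genes (24.5%), against 6.89% of all such genes. At least 8-fold apart the counts were 3 of 22 higher and 69 of 108 lower genes. Parent spread grew with the size of the loss, with a median range, 0.5 CPM added, of 1.25-fold among losses under 2-fold and 67.7-fold among those over 32-fold. Of the losses over 32-fold, 20 of 29 had no overlap and 18 were kept in every fit that left out a library.

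The spread among the parents followed replicate numbers. In 51.1% of the genes called lower by at least 2-fold, both parent libraries numbered 1 were above both numbered 2, against 33.0% of all genes tested. The opposite order was found in 23.6% of them and in 32.1% of all genes. Among genes called higher by at least 2-fold the shares were 25.1% and 23.7%. Where called losses overlapped (200 genes), the lowest parent was DD1 parent 1 in 88 and DD1 parent 2 in 86. The labels do not say what the numbers mean, and their part in the losses was not tested.

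**Figure D4:**
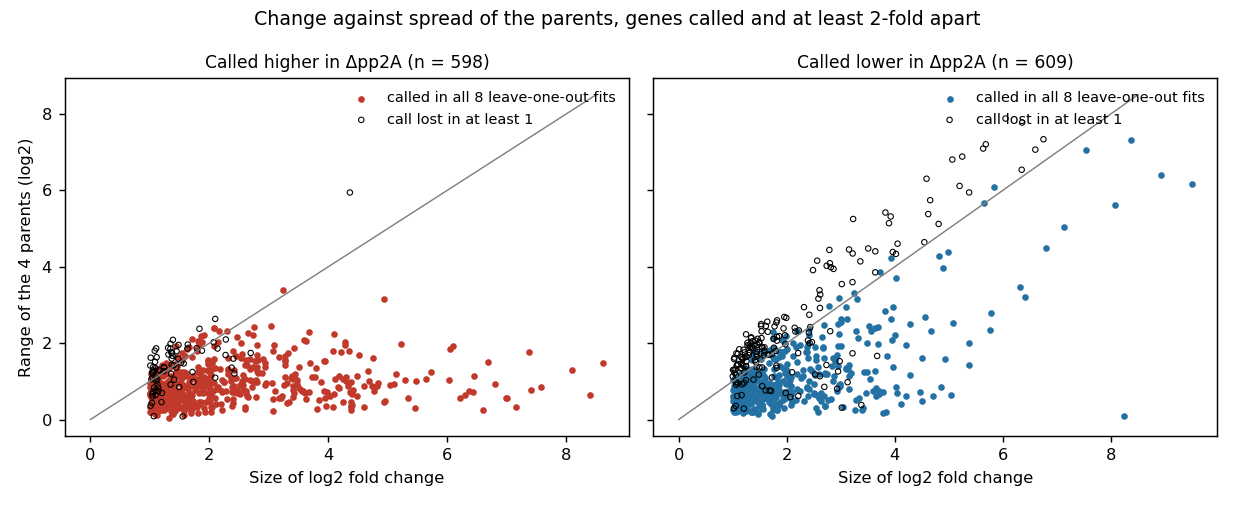
Range of the 4 parent libraries (log2, vertical) against the size of the log2 fold change (horizontal) for the genes called and at least 2-fold higher (red, n = 598) or lower (blue, n = 609) in Δpp2A. Gains are on the left and losses on the right, open circles are genes whose call was lost in at least 1 fit that left out a library, and the grey line marks a parent range equal to the change. Ranges have 0.5 CPM added, which holds those of gains from low parents down. Among losses over 32-fold the median range is 67.7-fold.

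Genes with neighbouring identifiers tended to change together. A neighbour here is the next running number with the same letter, and the labels do not say whether this follows the order along the chromosomes. Of 6830 pairs of neighbours with both genes tested, 336 were higher together, 335 lower together and 325 opposite. After a gene called higher, the next was higher in 27.2%, against 17.7% after any gene, and lower in 13.0%. After a gene called lower, the next was lower in 25.5%, against 19.2% after any gene, and higher in 12.5%. In all, 1192 of the 3171 called genes (37.6%) had a neighbour on either side called the same way. The matching share over all genes tested was not counted.

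The likeness was short in reach. The fold changes of neighbours correlated at a rho of 0.187 (n = 6830 pairs), at 0.0662 for the next but 1 and at 0.0102 at a distance of 5. From 10 to 200 numbers apart rho lay between -0.00222 and 0.0123. All pairs share the same libraries, and the values describe these data without a test.

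The likeness also differed by the suffixes. Pairs with C followed by W correlated at a rho of 0.322 (n = 2014 pairs) and pairs with W followed by C at 0.0571 (n = 2071), with pairs of equal suffix between them, at 0.183 for W and W (n = 1339) and 0.184 for C and C (n = 1406). Of the C then W pairs 128 were higher together, 125 lower together and 68 opposite. Of the W then C pairs 67 were higher together, 83 lower together and 115 opposite. In identifiers of Saccharomyces cerevisiae, W and C mark the strands. The labels do not say whether they mean the same here. Reads of overlapping genes may have been counted for either gene, which was not tested.

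**Figure D5:**
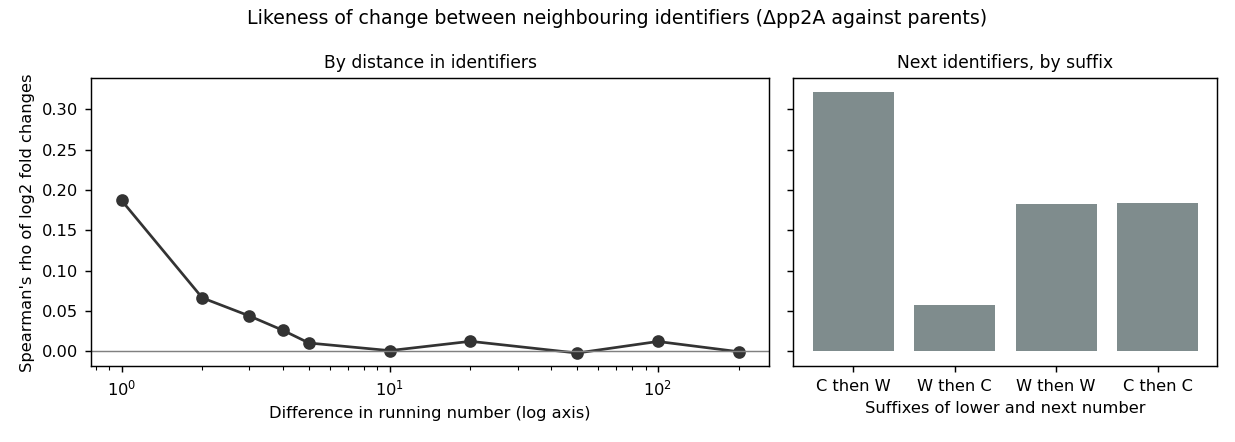
Spearman's rho between log2 fold changes (Δpp2A against parents) of genes with the same letter, against the difference in running number (left, log axis), and for next identifiers by their suffixes (right). The rank correlation is 0.187 for next identifiers, 0.322 where C is followed by W, and near 0 from a distance of 5 on.

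Many of the largest gains, and of the losses of at least 32-fold, had a neighbour called alike. Of the 30 genes at least 32-fold higher, 22 (73.3%) had a neighbour called higher, and of the 134 at least 8-fold higher, 91 (67.9%). Of the 29 at least 32-fold lower, 17 (58.6%) had a neighbour called lower, and of the 121 at least 8-fold lower, 48 (39.7%). Among all called genes the share was 37.6%, from 601 of 1534 called higher and 591 of 1637 called lower. Losses of at least 8-fold stood close to all called losses. The share over all genes tested was not counted, and no test was made.

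Runs of at least 3 consecutive identifiers called the same way numbered 52 among the higher genes (175 genes) and 55 among the lower (189 genes). Runs of 5 or more numbered 5 and 8. With 18.3% of all genes tested called higher and 19.5% lower, some runs would arise without any likeness, and their number was not worked out. A run of 5 higher genes with the letter D, numbers 14 to 18, summed to 217, 216, 193 and 207 CPM in Δpp2A, against 26.2 and 24.2 CPM in the DD1 parents and 31.3 and 26.5 CPM in the DD3 parents. Its genes rose by log2 fold changes of 0.60 to 6.44. A run of 5 higher genes with the letter B, numbers 326 to 330, summed to 113, 123, 151 and 114 CPM in Δpp2A, against 39.0 and 28.7 CPM in the DD1 parents and 25.5 and 23.1 CPM in the DD3 parents. Every gene of both runs had no overlap and kept its call in each fit that left out a library, which held for 2 of the 5 higher runs and 3 of the 8 lower runs of this length.

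The longest run was 7 lower genes with the letter E, numbers 659 to 665. It summed to 627, 447, 428 and 455 CPM in Δpp2A, against 22400 and 2410 CPM in the DD1 parents and 10300 and 1760 CPM in the DD3 parents. The parents split by number, and although 6 of the 7 genes had no overlap, 3 kept their call in each fit that left out a library. A run of 6 lower genes with the letter B, numbers 811 to 816, was steadier. It summed to 237, 191, 481 and 233 CPM in Δpp2A, against 1120 and 1170 CPM in the DD1 parents and 1120 and 1010 CPM in the DD3 parents, and all 6 genes met both conditions. With library size only, all genes of these 4 runs were still called in the same direction, as in all 5 higher runs but only 3 of the 8 lower runs of 5 or more.

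Calls were spread over all 7 letters, at 16.8% to 20.6% of tested genes higher and 18.2% to 20.9% lower. Among genes within 10 numbers of either end of a letter, 58 of 140 listed could be tested, and 13 were higher (22.4%) and 16 lower (27.6%), beside 18.3% and 19.5% of all genes tested. Within 50 numbers of an end, 100 of 418 tested genes were higher (23.9%) and 80 lower (19.1%).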

How the data were processed

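Per the labels' protocols, mycelial RNA was taken with a kit for plant RNA and made into rRNA-depleted libraries with a stranded kit. The authors deposited 1 table of unnormalised read counts per gene with the gene length. The submitters' processing notes name HISAT2 2.2.1 without its role, and nothing read here states the counting settings, use of strand, build or annotation. Of the lengths 94.7% are multiples of 3, and they are called coding lengths.

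Each count column was matched through the label that names it, and 0 columns were left unmatched. Groups came from titles. The members, gene lists and rules were chosen with earlier results of these data known. With edgeR 4.0.16 in R 4.3.3, filterByExpr kept 8402 of 10879 genes in the 8 libraries (those left out held at most 0.128% of a library's counts), counts were TMM-scaled, and the quasi-likelihood model (robust) had a mean for each strain. P-values were adjusted by Benjamini-Hochberg over all genes tested and called under 0.05. All p-values are two-sided. Ranges and overlaps used TMM-scaled CPM, with 0.5 added before log2 for ranges, and correlations of libraries log2 CPM with a prior count of 2. Levels in other deletions are CPM of library total. No replicate pair agreed within sampling noise by a chi-square test. The test was also run on simulated counts, where it mostly missed small changes and some of its calls were false. Ranges without an added CPM and rankings by the levels of the compared strains were chosen after seeing the data. Alternatives included DESeq2 1.42.0. Named genes were the candidate for the deleted gene and, among 898 gains and 923 losses of at least 10 CPM in the higher group, without overlap and called in every fit that left out 1 library, those with the largest fold gain and the largest gain and loss in CPM.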

Additional observations from a re-analysis of the deposited data

Results flagged for a closer look

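Library values were examined for a library far from the other 3 of its group in 18 sets, and 5 held one. Chance flags about 1 set in 20 if values are normally distributed. Δpp2A replicate 3 accounted for 3 of them. The 100 most abundant genes held 12.64% of its counts, against 10.95% to 11.17% in the other Δpp2A libraries. It had 8518 genes at 1 CPM or more, against 8387 to 8401, and a TMM factor of 1.096, against 1.113 to 1.114. In each of the first 2 of these measures and in the factor it still lay on the Δpp2A side of all parents. DD1 parent 1 had 27.56% of its counts in its own 100 highest genes, against 25.60% to 25.92% in the other parents. TrG1101W was at 0.431 CPM in Δpp2A replicate 4, from 4 counts, while the other 3 libraries had 0, where any count stands apart.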

How the results depend on the processing

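TMM, DESeq2 size factors, upper quartile scaling, all 15 libraries in the fit and no filter kept the number of calls within 1.5 times of 3171, and 0 called genes were called the opposite way in any setting. With the DD1 parents only there were 1536 calls (723 higher, 813 lower), 1527 of them without overlap. At an adjusted p under 0.01 there were 1678 calls (834 higher, 844 lower), and against a 1.5-fold difference 893 (476 higher, 417 lower). With library size only, 3002 genes were higher and 760 lower. DESeq2 called 1768 higher and 1958 lower. Leaving out 1 library gave 1036 (without Δpp2A replicate 4) to 1780 lower genes. The replicate number as a replicate block, over all 15 libraries, gave 1341 higher and 1290 lower genes. Deviations of same-numbered Δpp2A and parent libraries correlated at -0.237 and -0.221 (number 1) and 0.177 and 0.176 (number 2). The sign thus differed between the numbers, and whether same-numbered libraries share anything beyond the number was not tested.

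Of the abundant genes 28 were lower with library size only, 35 with the DD1 parents, 63 when ranked by both strains alike (added after seeing the data), 27 of the highest 50 and 132 of the highest 200. Switched-on genes numbered 2 with silence under 0.5 CPM, 37 under 2 CPM (added after seeing the data), 6 with activity from 10 CPM, 16 and 20 with the DD1 and DD3 parents only, and 10 to 18 without 1 library (18 without DD1 parent 1). The share of called genes with a neighbour called alike, which moves with the number of calls, was 50.3% with library size only, 27.2% with the DD1 parents, 35.1% with the replicate block, 41.8% with DESeq2, 56.9% counting the next but 1, and 32.1% to 41.3% without 1 library. Depth limits the silent genes, where the parent libraries held at most 9 counts each.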
